A study of Mus musculus with 18 samples.

Results

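The transcripts described here are those of the glutathione transferases outside the theta class and of the enzymes that make, reduce, use and degrade glutathione. Members were chosen by gene symbol. Of 45 symbols listed, 43 matched a row of the deposited expression table of 16383 genes, and Ggt5 and Gpx7 are not analysed here. RNA was sequenced from mouse pancreatic ductal adenocarcinoma lines grown from spontaneous metastases, after Gstt1, a theta-class transferase, had been depleted with lentiviral short hairpins. The comparisons ask whether the remaining glutathione genes differed with Gstt1 depletion, between lung and liver lines, and between hairpins.

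Glutathione transferases join the thiol of glutathione to electrophilic compounds, and the cytosolic enzymes are divided by sequence into classes such as alpha, mu, pi, omega, zeta and theta, beside a mitochondrial kappa class and unrelated membrane-bound microsomal enzymes. Glutathione itself is built from glutamate, cysteine and glycine by glutamate-cysteine ligase and glutathione synthetase, is oxidised when peroxidases and glutaredoxins use it, and is returned to its reduced form by glutathione reductase. In tumour cells, pancreatic ones among them, many of these genes are known targets of the oxidative stress factor NRF2, which binds antioxidant response elements in their promoters.

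The lung metastases gave lines 42-3 and 6-2, and the liver metastases gave 42-2, G45-2, 6-3 and 13-2. By their genotype labels, all sets carry the p48 driver, the Ptf1a locus that is active in pancreatic progenitors, and a floxed p53 allele, in controls and knockdowns alike. All sets but 13-2 also carry floxed Sirt6 alleles. Every group was infected with polybrene, selected with puromycin for 48 h and collected after 1 split, in RPMI with 10% serum. There were 8 libraries with a non-targeting (NT) hairpin, 6 with Gstt1 shRNA 1 and 4 with Gstt1 shRNA 2. A culture set is an NT control with the knockdown libraries of the same line. Of the 8 sets, 3 were from lung and 5 from liver lines, lines 42-3 and 42-2 gave 2 sets each, called first and second by their library code, and only G45-2 and 6-3 had both hairpins. In 6-3 and 13-2 the control carries another library code than the knockdowns, and the part of that in the differences of these sets was not tested.

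Promoter sequences show where the NRF2 core motif lies in the members with the smallest p under knockdown, and Gstm5 is added because it held both motifs searched. They are RefSeq promoters of build GRCm38.p6, written 5′ to 3′ on the strand of the gene, from 250 bases before to 50 bases after a start site, and capitals mark the motifs.

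Gsta3, chr1:21240335-21240634, plus strand: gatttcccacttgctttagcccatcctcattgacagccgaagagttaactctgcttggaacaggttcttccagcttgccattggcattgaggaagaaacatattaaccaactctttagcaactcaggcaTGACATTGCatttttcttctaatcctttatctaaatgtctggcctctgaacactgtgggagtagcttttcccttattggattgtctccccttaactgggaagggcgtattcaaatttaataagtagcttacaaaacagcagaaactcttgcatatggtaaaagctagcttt

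Mgst1, chr6:138140277-138140576, plus strand: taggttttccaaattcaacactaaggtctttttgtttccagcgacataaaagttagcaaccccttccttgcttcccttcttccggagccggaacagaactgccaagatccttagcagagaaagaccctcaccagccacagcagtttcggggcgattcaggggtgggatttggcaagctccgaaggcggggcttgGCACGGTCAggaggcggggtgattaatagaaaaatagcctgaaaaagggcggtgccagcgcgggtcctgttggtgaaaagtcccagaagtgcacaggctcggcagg

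Gstm5, chr3:107895604-107895903, plus strand: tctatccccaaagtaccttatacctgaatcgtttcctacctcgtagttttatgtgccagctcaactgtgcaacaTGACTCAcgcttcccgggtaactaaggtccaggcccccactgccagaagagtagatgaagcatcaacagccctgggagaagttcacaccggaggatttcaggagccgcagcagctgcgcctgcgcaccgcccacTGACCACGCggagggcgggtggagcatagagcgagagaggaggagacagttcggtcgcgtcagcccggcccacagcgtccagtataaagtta

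Gstm4, chr3:108044810-108045109, minus strand: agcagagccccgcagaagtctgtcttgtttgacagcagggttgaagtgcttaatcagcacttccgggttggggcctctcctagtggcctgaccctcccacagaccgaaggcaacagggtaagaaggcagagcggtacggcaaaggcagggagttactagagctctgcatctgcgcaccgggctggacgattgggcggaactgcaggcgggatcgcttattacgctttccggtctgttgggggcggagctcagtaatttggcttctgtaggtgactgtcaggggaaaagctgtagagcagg

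The motifs searched, on both strands, were the NRF2 core TGACNNNGC and the AP-1 site TGANTCA, which can overlap. In Gsta3 the NRF2 core began 121 bases before the start site. In Mgst1 it lay 56 bases before it, on the other strand. In Gstm5 the NRF2 core lay 42 bases and the AP-1 site 176 bases before the start. The Gstm4 window held neither set of letters. Over the 39 members with a promoter entry, 8 held the NRF2 core in a promoter (Gclm, Ggct, Ggt1, Gsta3, Gstm5, Gstm7, Hagh and Mgst1). Some genes have several entries, and counted by promoter 10 of 59 member promoters held it (16.9%), against 12.4% of all 32851. The AP-1 letters were in 10.2% of member promoters and 7.81% of all. A match is a description of the letters, not of binding.

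Library depth was 8411436 to 25552912 reads. Levels are in CPM, the reads of a gene scaled to a library of 1000000, and a level of 0.117 to 0.357 CPM stands for 3 reads. Gstt1 was at 0.616 to 52.5 CPM (median 31.5) in NT controls and 0.0687 to 23.9 CPM (median 0.355) in knockdowns, and lower than its own control in all 10 knockdown libraries. Depletion was uneven: Gstt1 remained at 75.4% of control with shRNA 1 in 6-3 and at 54.5% with shRNA 1 in G45-2. Line 42-2 held little Gstt1 to deplete. Its controls were at 2.67 CPM in the first set and 0.616 CPM in the second, and its knockdowns at 0.373 and 0.0687 CPM, near or below the 3-read level. Some libraries of a set also differed in transcripts that should be shared by cells of a single line, here termed identity transcripts: 4 Y-linked genes, Xist, Cdkn2a and Cdkn2b. In 5 sets (both 42-3 sets, 6-2, the first 42-2 set and 13-2) 2 or more of these 7 were at 10 CPM or above in a library and lower in its partner by 10-fold or more, and with a limit of 1 CPM the second 42-2 set joined them. All 3 lung sets are among the 5. The 42-2 controls also differed from each other, with Xist at 0.0494 CPM in the first and 41.7 CPM in the second. Knockdown estimates were therefore also computed without these sets. G45-2 was kept, although 1 of the 7 differed there. Its Kdm5d was at 29.8 CPM in the control and at 0 and 0.0621 CPM with the hairpins.

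Cell type markers were examined beside the members. All 7 ductal epithelial markers were present, with a summed level of 538 to 15149 CPM in NT controls (median 9959) and 375 to 7683 CPM in knockdowns (median 4406), and 6 of the 7 had a negative knockdown estimate. The 8 fibroblast markers matched summed to 6.13 to 2920 CPM in NT controls and 4.16 to 6453 CPM in knockdowns. Within sets this sum went from 58.5 to 3877 CPM in the first 42-3 set, 14.1 to 357 in the second and 2920 to 6453 in the second 42-2 set. It was lower than control in the first 42-2 set (196 to 30.1 CPM) and with shRNA 2 in 6-3 (6.13 to 4.16 CPM). The ductal sum went from 12304 to 1488 CPM in the first 42-3 set and from 2921 to 6703 CPM in 13-2. The 3 immune markers matched summed to 3.76 to 16.6 CPM in NT controls, where Ptprc and Csf1r were under 1 CPM throughout, and to 1.53 to 14.0 CPM in knockdowns, where none was under 1 CPM throughout. The 4 endothelial markers summed to at most 1.74 CPM in NT controls and at most 11.4 CPM in knockdowns, the latter in 6-2, the set of lowest member median. The 5 hepatocyte markers matched summed to 0.308 to 315 CPM in NT controls and 0.137 to 292 CPM in knockdowns. Within sets the hepatocyte sum went from 242 to 3.12 CPM in 6-2, from 114 to 0.523 in the first 42-2 set and from 13.7 to 152 and 104 in G45-2. The 1 lung epithelial and 1 acinar marker matched reached at most 3.69 and 20.3 CPM. The part of these marker differences in the results below was not tested. In bulk libraries, fewer cells of a type and less RNA per cell cannot be told apart.

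Levels between genes were compared per kb of transcript. For each gene this was the GENCODE M21 transcript with the longest coding sequence, and the longest transcript among ties. Gpx1, the main cytosolic glutathione peroxidase, was highest in NT controls at 578 ± 298 CPM per kb (SD, n = 8). Gsto1, an omega-class enzyme that also reduces dehydroascorbate, followed at 532 ± 218, a difference smaller than the spread of either. Glutathione reductase (Gsr, 193 ± 54.5), Mgst1 (189 ± 179), Gsta4 (185 ± 165) and Gstp1 (177 ± 40.6) came next and could not be ordered within their spread. The highest mu-class member was Gstm1 at 124 ± 59.1 CPM per kb, and the highest synthesis gene Gclc at 59.6 ± 18.9. Among glutaredoxins Glrx2 led at 59.4 ± 10.6, among glyoxalases Hagh at 38.2 ± 11.0 and among breakdown genes Chac2 at 16.9 ± 6.01. Such orders depend on the transcript used. In mean CPM Glo1 was above Hagh (113 against 45.4), but its transcript has 9865 bases against 1191. Likewise Glrx5 was above Glrx2 (111 against 45.0 CPM), with 2925 bases against 758. The remaining roles have 1 tested member each: zeta-class Gstz1 at 22.3 ± 4.20, Gstcd at 13.3 ± 4.75 and kappa-class Gstk1 at 6.91 ± 8.36. Gstm3 was lowest, at 0.109 ± 0.148.

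**Figure D1:**
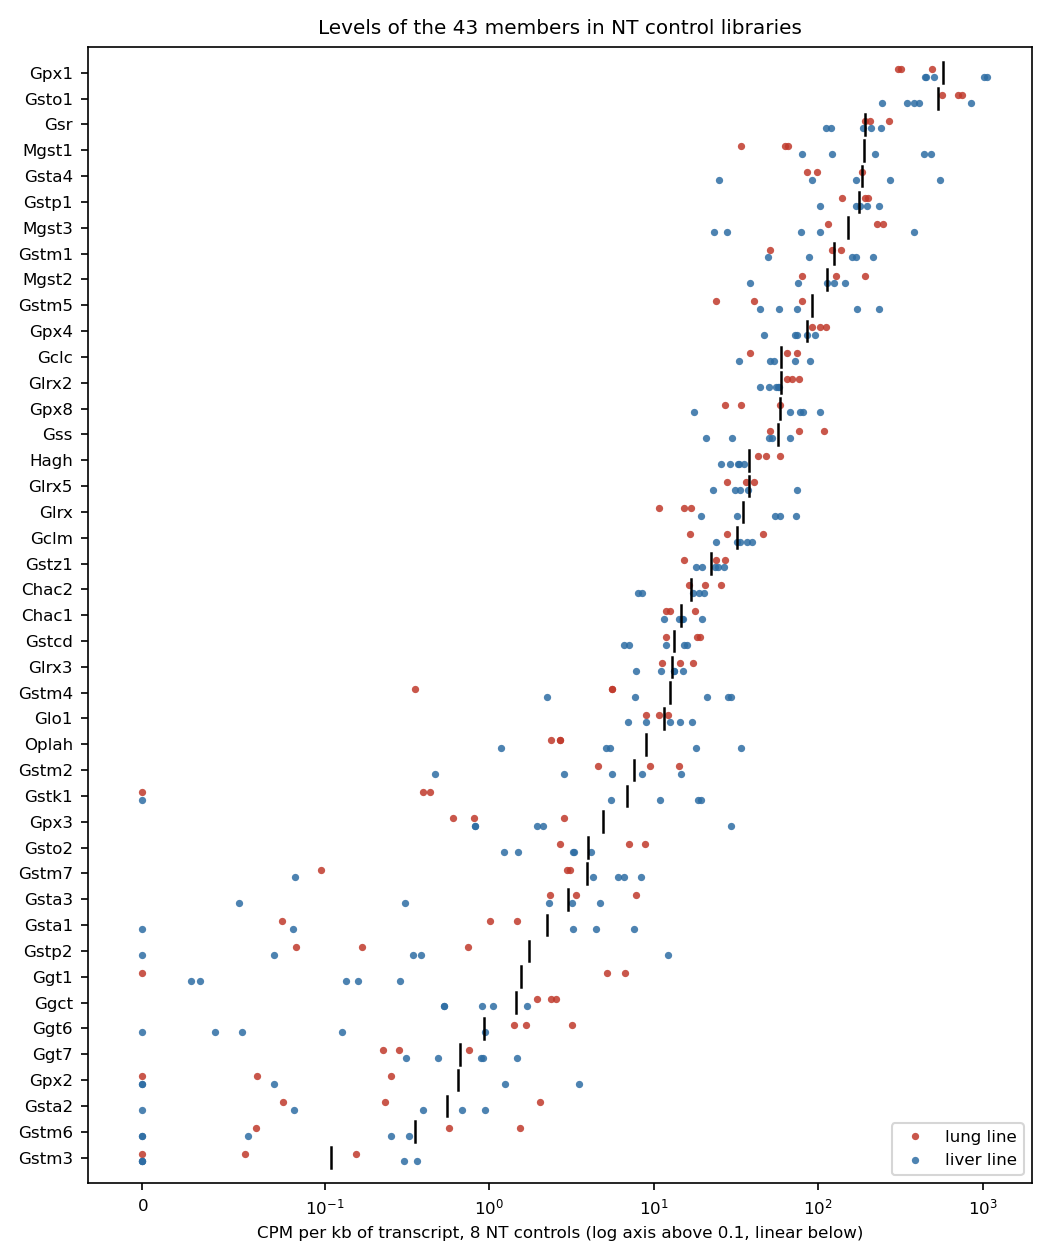
CPM per kb of transcript of the 43 matched members (vertical axis) in 8 NT controls, red for lung lines and blue for liver lines, with a black bar at the mean; the horizontal axis is logarithmic above 0.1 and linear below. Gpx1 and Gsto1 lie highest, and the spread between libraries is wider for Mgst1, Gsta4 and Gstm5 than for Gsr, Gstz1 and Glrx2.

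The separate levels of some relatives are uncertain. Coding sequences were 97.6% identical between Gsta1 and Gsta2 and 98.1% between Gstp1 and Gstp2, and 89.7% of the 50-base windows of Gsta1 and 62.3% of those of Gstp1 occur in another gene. For Gpx4 the share was 61.7%, with the pseudogene Gpx4-ps2, and for Gstm1 33.0%. Coding identity within the mu class was 64.0% to 85.2%, yet Gstm4, Gstm5 and Gstm7 had no shared window, nor had Gsta3 and Mgst1. The 7 mu genes lie next to each other on chromosome 3 in the RefSeq gene order, Gstm5, Gstm7, Gstm6, Gstm3, Gstm2, Gstm1, Gstm4. How the authors assigned reads that fit several genes is unknown here.

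Of the matched members, 5 (Gpx2, Gstm3, Gstm6, Gsta2 and Gstp2) were too low to be tested, since a test required 1 CPM or more in 4 or more libraries. Gpx2, a peroxidase of epithelial cells, was singled out after its values were seen. Its highest NT levels were 3.74 CPM in G45-2 and 1.33 CPM in the first 42-2 control, the remaining controls held at most 0.269 CPM, and no read was present in any of the 10 knockdown libraries. With no filter on low values its log2 difference was -0.55 (SE 0.26, limma adjusted p = 0.345), which did not pass.

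Under knockdown, 0 of 38 members tested passed (limma, Benjamini-Hochberg adjusted p under 0.05 over 12931 genes), against a background of 0.0387% of all genes. Gstt1 itself, lower than control in all 10 knockdown libraries, did not pass in this fit either (-3.27, SE 0.67, adjusted p = 0.0820). A count of 0 therefore does not show that the members were unchanged. At an unadjusted p under 0.05 there were 6 members, 5 lower and 1 higher, or 15.8% of members against 17.1% of all genes. The edgeR quasi-likelihood test on recovered reads called 0 members, with 3 of 38 at an unadjusted p under 0.05, against 1944 of all 12931 genes. The smallest adjusted p among members was 0.169. Estimates were below 0 for 31 of 38 members (81.6%, against 53.0% of all genes), and the median was -0.36 against -0.03 for all genes. Every log2 difference is of log2(CPM + 1), a scale that shrinks the differences of low genes. The labels do not say whether libraries of a line are separate cultures, so the p-values reflect a spread between libraries that may be technical.

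By culture set, the member median of the difference from the own control was -1.02 in 6-2, -0.59 in 6-3, -0.45 in the first 42-2 set, -0.26 in the first 42-3 set, -0.20 in the second 42-2 set, -0.18 in G45-2, -0.14 in 13-2 and -0.02 in the second 42-3 set. It was below 0 in 8 of 8 sets, at -0.36 ± 0.32 (SD, n = 8). The median of all genes in those sets ran from -0.15 to 0.05, and in 13-2 and the second 42-3 set it was below the member median. No member was lower than control in all 8 sets, where 2.43% of all genes were, and none was higher in all 8, where 1.34% were. Lower in at least 7 sets were 7 members, 18.4% of those tested against 10.5% of all genes: Gsta3, Gstm4, Gstz1, Gpx1, Gpx4, Gsr and Mgst2. For every member tested the CPM of NT controls and knockdowns overlapped (background without overlap, 0.186% of genes).

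**Figure D2:**
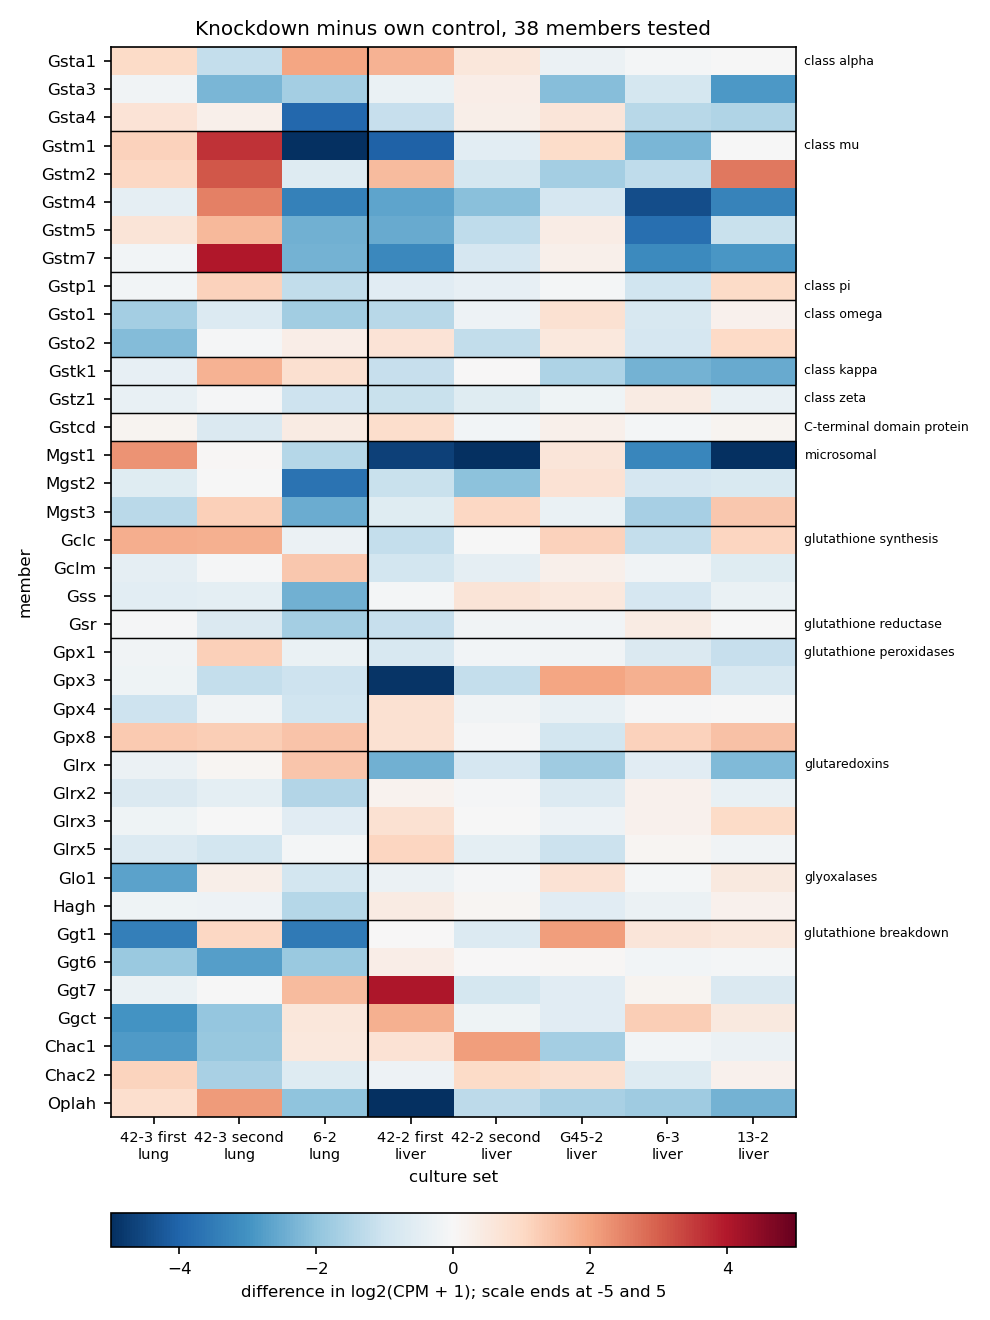
Difference in log2(CPM + 1) between knockdown and own control for the 38 members tested (rows, grouped by role) in 8 culture sets (columns, lung sets left of the line); blue is lower than control and red higher, and a set with both hairpins shows their mean. No row has 1 colour throughout: Gstm4 is blue in every set but the second 42-3 set, where the mu genes are red.

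Leaving out the 5 sets whose libraries differed in identity transcripts left only liver sets: G45-2, 6-3 and the second 42-2 set. With shRNA 1, Gstt1 was at 75.4% of control in 6-3 and 54.5% in G45-2. With shRNA 2 it was at 0.982% in 6-3, 11.8% in G45-2 and 11.2% in 42-2, whose control held only 0.616 CPM. The part of site and of depletion in the changes below was not tested. Without the 5 sets, 34 members could be tested and 0 passed in limma. Of these, 2 had an unadjusted p under 0.05, and 23 of 34 estimates were below 0. Of all 11723 genes tested there, 0 passed and 1314 had an unadjusted p under 0.05. The member of smallest p was then Gstm4 at -2.52 (adjusted p = 0.348). With the second 42-2 set also left out, 33 members were tested, 0 passed, 3 had an unadjusted p under 0.05 (Gstk1 at -1.94, Gstm4 at -2.64 and Mgst3 at -0.98) and 24 of 33 estimates were below 0. Of all 11334 genes then tested, 0 passed and 1469 had an unadjusted p under 0.05. The sign of the estimate turned for 10 of 34 members without 5 sets (Chac2, Ggct, Ggt7, Glo1, Glrx3, Gpx3, Gsr, Gss, Gstm2 and Gstz1) and for 11 of 33 without 6. Among these, Gpx3 turned from -0.61 to 1.41, Gstm2 from 0.20 to -1.14, Glo1 from -0.22 to 0.24, Gss from -0.38 to 0.07 and Gstz1 from -0.39 to 0.0093 without 5 sets. Of the others, Gclc shrank from 0.34 to 0.05, Gsta4 from -0.70 to -0.15 and Gstm1 from -0.77 to -0.35, and Gstp1 went from -0.20 to -0.46. Estimates of Mgst1 (-2.07), Oplah (-1.47) and Glrx (-1.05) moved less without 5 sets. Gsta3, Ggt6, Ggt1 and Gstm7 were too low in the remaining libraries to be fitted there.

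Among the alpha-class transferases, which detoxify lipid peroxidation products and steroid precursors, Gsta3 had the smallest p of all members under knockdown. Gsta3 (ENSMUSG00000025934) was at 0.0770 to 11.4 CPM (median 4.01) in NT controls and 0.0532 to 4.27 CPM (median 0.351) in knockdowns. It was lower than its own control in 8 of 10 knockdown libraries and in 7 of 8 sets, most in 13-2 (6.87 to 0.0706 CPM) and the second 42-3 set (11.4 to 1.55 CPM). The 2 exceptions were 6-3 shRNA 1 (3.34 to 4.21 CPM) and the second 42-2 set, where both libraries were near the 3-read level. In G45-2 it went from 4.61 to 0.0532 and 0.559 CPM. The log2 difference was -1.32 (SE 0.43, adjusted p = 0.169) in limma and did not pass, and an exact sign-flip permutation test over sets (two-sided) gave p = 0.0234, unadjusted, where 8 sets allow 0.00781. That test takes the 8 sets as independent, although they come from 6 lines, with 2 sets each from 42-3 and 42-2. Gsta3 was also picked by its limma p in the same data, so the sign-flip p is not separate support. Gsta4, which conjugates 4-hydroxynonenal, was at 24.3 to 535 CPM (median 131) in NT controls and 4.61 to 293 CPM (median 131) in knockdowns. Its medians were nearly equal and it was lower in 5 of 10 libraries, with 6-2 the extreme at 83.6 to 4.61 CPM. Gsta1 was at 0 to 6.68 CPM (median 1.08) and 0 to 11.9 CPM (median 2.92), and its limma estimate was 0.29 (SE 0.31, adjusted p = 0.674).

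The mu-class genes varied widely between sets. Gstm4 (ENSMUSG00000027890) was at 0.606 to 50.1 CPM (median 11.3) in NT controls and 0 to 8.32 CPM (median 4.44) in knockdowns, lower in 9 of 10 libraries. In line 6-3 it was at 50.1 CPM in the control, 1.59 with shRNA 1 and 1.17 with shRNA 2, and in 13-2 at 48.6 and 3.96 CPM. In 6-2 it had no read in the knockdown, against 9.53 CPM in the control. The library that went the other way was the second 42-3 knockdown, at 8.32 CPM against 0.606 in its control, while the first 42-3 control held 9.57 CPM. The limma estimate was -1.78 (SE 0.62, adjusted p = 0.184). Gstm5, at the other end of the cluster, was at 22.6 to 223 CPM (median 62.4) in NT controls and 13.3 to 71.5 CPM (median 29.7) in knockdowns, lower in 6 of 10 libraries. It was lowest relative to control in 6-3, at 223 against 13.3 and 17.5 CPM, and its estimate was -1.05 (SE 0.53, adjusted p = 0.336). Without the 5 sets that differed in identity transcripts it was -1.59.

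Gstm1, the most abundant mu transferase, was at 40.8 to 179 CPM (median 107) in NT controls and 2.51 to 521 CPM (median 80.6) in knockdowns, lower in 6 of 10 libraries. Its knockdown range held both extremes of the 18 libraries: 2.51 CPM in 6-2 (control 114) and 521 CPM in the second 42-3 set (control 42.2). Summed over the 7 genes, mu-class transcript averaged 225 ± 132 CPM over the 8 NT controls and 182 ± 193 CPM over the 10 knockdowns (SD). As a share of the own control the sum went from 5.77% with shRNA 2 in 6-3 to 941% in the second 42-3 set. Gstm7 was at 0.115 to 11.5 CPM (median 5.06) and 0 to 17.1 CPM (median 0.363), with no read in 6-2 and first 42-2 knockdown libraries and 17.1 CPM in the second 42-3 knockdown. Of the 5 mu members tested, 4 had negative estimates (median -0.94), and Gstm2 was at 0.20, which turned to -1.14 without the 5 sets that differed in identity transcripts and to -1.49 without 6.

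Gstp1, the pi-class enzyme that is prominent in many carcinomas, was comparatively even at 84.5 to 194 CPM (median 153) in NT controls and 68.8 to 258 CPM (median 128) in knockdowns. It was lower in 8 of 10 libraries, but above control in the second 42-3 set (115 to 258 CPM) and in 13-2 (84.5 to 167 CPM), and the estimate was -0.20 (SE 0.27, adjusted p = 0.749) in limma. Gsto1 (ENSMUSG00000025068) was at 290.4 to 1004 CPM (median 578) in NT controls and 184 to 679 CPM (median 435) in knockdowns. All 3 lung controls (672 to 885 CPM) exceeded their own knockdown, which held 255 to 418 CPM, while liver lines went both ways, G45-2 from 290.4 to 452 and 526.1 CPM. The estimate was -0.62 (SE 0.28, adjusted p = 0.290), and -0.07 without the 5 sets that differed in identity transcripts. Kappa-class Gstk1 is described with the lung and liver comparison. Zeta-class Gstz1, which isomerises maleylacetoacetate in tyrosine breakdown, was at 25.3 to 44.7 CPM (median 39.3) and 17.7 to 76.7 CPM (median 27.5), lower in 9 of 10 libraries and higher in 6-3 shRNA 1 at 76.7 CPM, with an estimate of -0.39 (SE 0.22, adjusted p = 0.397). Gstcd, a protein with a transferase-like C-terminal domain, showed little spread, at 23.0 to 66.6 CPM (median 47.7) and 27.0 to 69.9 CPM (median 47.4).

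The 3 microsomal enzymes, membrane proteins of the MAPEG family, all had negative estimates. Mgst1 (ENSMUSG00000008540), a transferase and peroxidase of the endoplasmic reticulum and outer mitochondrial membrane, was at 35.0 to 501 CPM (median 104) in NT controls and 1.65 to 281 CPM (median 31.8) in knockdowns. In 4 liver sets it was far below control: 501 against 12.2 CPM in 13-2, 455 against 17.2 in the first 42-2 set, 82.6 against 1.65 in the second, and 229.9 against 40.4 and 12.8 in 6-3. Of these, both 42-2 sets had little Gstt1 even in the control, at 2.67 and 0.616 CPM. In G45-2 it was not lower, at 125 CPM in the control and 281 and 132 with the hairpins, and in the first 42-3 set it went from 35.0 to 172 CPM. The limma estimate over all sets was -2.11 (SE 0.80, adjusted p = 0.215), the most negative of the 38, and -1.32 without the 6 sets. Mgst2, which can also make leukotriene C4, was at 23.1 to 117 CPM (median 71.5) and 4.81 to 90.0 CPM (median 43.4), with the lowest levels in the knockdowns of 6-2 (8.24 CPM) and the second 42-2 set (4.81 CPM). Its estimate was -0.996 (SE 0.43, limma adjusted p = 0.265) and it was lower in 7 of 8 sets, but the estimate was -0.43 without those 5 sets and -0.05 without 6. Mgst3 was at 25.6 to 419.8 CPM (median 119) and 44.4 to 286 CPM (median 91.8), with an estimate of -0.36 (SE 0.41, adjusted p = 0.694). The microsomal sum averaged 429 ± 209 CPM over the 8 NT controls and 230.1 ± 144 CPM over the 10 knockdowns (SD), and was lower in 8 of 10 libraries.

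**Figure D3:**
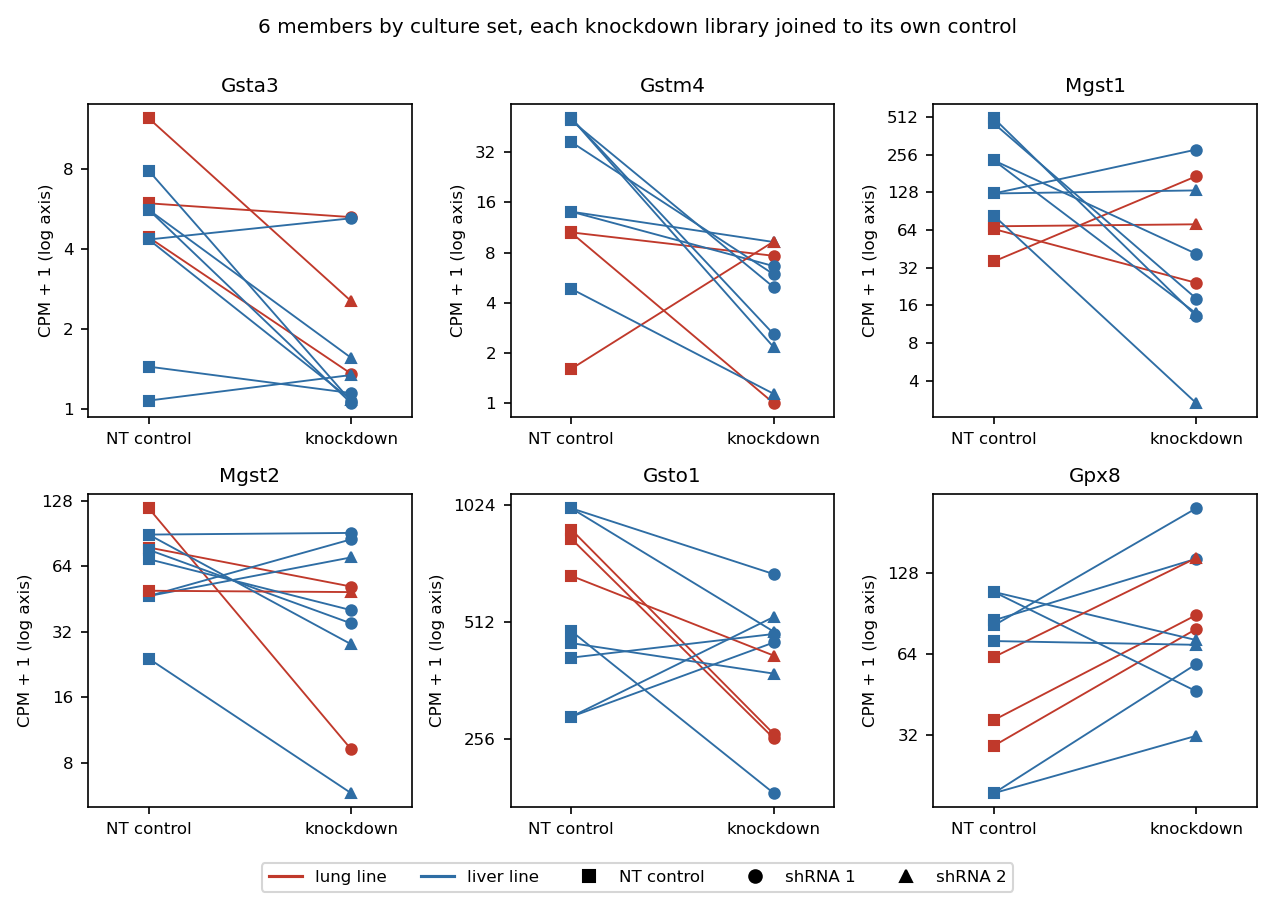
CPM + 1 on a log axis for the 6 members with an unadjusted p under 0.05 in the knockdown comparison, each knockdown library joined by a line to the NT control of its set; squares are controls, circles shRNA 1 and triangles shRNA 2, red for lung and blue for liver lines. Most lines slope down for Gsta3, Gstm4 and Mgst2 and most slope up for Gpx8, and for each member the 2 groups overlap.

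Of the synthesis genes, none was near the threshold. Gclc, the catalytic subunit of glutamate-cysteine ligase, was at 112 to 304 CPM (median 203) in NT controls and 88.8 to 864 CPM (median 288) in knockdowns. The 2 highest libraries were the knockdowns of line 42-3, at 791 CPM (control 221) and 864 CPM (control 253), and 5 of 10 libraries were lower than control. The modifier subunit Gclm was at 93.2 to 259 CPM (median 183) and 99.1 to 255 CPM (median 172), and glutathione synthetase Gss at 41.0 to 213 CPM (median 101) and 39.9 to 158 CPM (median 73.6). Their limma estimates were 0.34 for Gclc, -0.15 for Gclm and -0.38 for Gss, with adjusted p of 0.686, 0.774 and 0.512. Summed, synthesis transcripts averaged 496 ± 119 CPM over the NT controls and 604 ± 308 CPM over the knockdowns (SD, n = 8 and 10).

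Glutathione reductase, Gsr (ENSMUSG00000031584), was at 299 to 721 CPM (median 535) in NT controls and 169 to 888 CPM (median 373) in knockdowns. It was lower in 7 of 8 sets, most in 6-2 (552 to 169 CPM), but higher in both hairpin libraries of 6-3 (646 to 888 and 832 CPM). The estimate was -0.40 (SE 0.23, adjusted p = 0.394) in limma, and turned to 0.07 without the 5 sets that differed in identity transcripts and to 0.12 without 6.

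Among the peroxidases, Gpx8, an endoplasmic reticulum peroxidase of protein folding, was the member with the most positive estimate. Gpx8 (ENSMUSG00000021760) was at 18.4 to 108 CPM (median 65.8) in NT controls and 30.7 to 222 CPM (median 74.6) in knockdowns. It was higher in 7 of 10 libraries, all 3 lung knockdowns among them (88.2, 78.2 and 144 CPM against 35.3, 28.1 and 61.2), and lower in G45-2 (108 to 45.4 and 71.0 CPM). The estimate was 0.70 (SE 0.29, adjusted p = 0.243) in limma, with an exact sign-flip permutation p of 0.0469 over sets, unadjusted. The limits of that test given for Gsta3 hold here too. The estimate shrank to 0.09 without the 5 sets that differed in identity transcripts and to 0.12 without 6. Gpx1 was at 330.1 to 1146 CPM (median 509) and 250.004 to 778 CPM (median 437), lower in 9 of 10 libraries and higher in the second 42-3 set, with an estimate of -0.28 (SE 0.24, adjusted p = 0.576). Gpx4, which reduces lipid hydroperoxides and guards against ferroptosis, was at 46.6 to 111 CPM (median 87.7) and 50.2 to 113 CPM (median 68.2), lower in 8 of 10 libraries. The secreted Gpx3 was low and erratic. It went from 46.8 to 0.597 CPM in the first 42-2 set, whereas 6-3 had 1.29 CPM in the control and 37.2 CPM with shRNA 1. Of 4 tested peroxidases 3 had negative estimates (median -0.27), and 2 did without the 5 sets, where Gpx3 was at 1.41.

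Glutaredoxins reduce protein disulfides and glutathionylated proteins. Cytosolic Glrx (ENSMUSG00000021591) was at 14.4 to 98.5 CPM (median 34.8) in NT controls and 9.52 to 43.2 CPM (median 18.6) in knockdowns. It was lower in 7 of 10 libraries, for example from 98.5 to 20.6 CPM in 13-2 and 73.6 to 13.2 CPM in the first 42-2 set, whereas 6-2 went from 14.4 to 39.6 CPM. The estimate was -0.86 (SE 0.40, adjusted p = 0.305). Mitochondrial Glrx2 was at 33.4 to 58.3 CPM (median 43.7) and 17.0 to 62.7 CPM (median 33.0), lower in 8 of 10 libraries, with an estimate of -0.42 (SE 0.23, adjusted p = 0.367) that was -0.13 without those 5 sets. Of Glrx3 and Glrx5, both with roles in iron-sulfur cluster handling, the estimates were 0.09 and -0.31. The glyoxalases, which clear methylglyoxal with glutathione as cofactor, had estimates of -0.22 (Glo1) and -0.29 (Hagh), and the lowest Glo1 level of all libraries was 13.0 CPM in the first 42-3 knockdown.

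Breakdown genes gave 6 negative estimates of 7, and 3 of 5 without the 5 sets that differed in identity transcripts. Oplah, the 5-oxoprolinase that returns glutamate from degraded glutathione, was at 4.77 to 139 CPM (median 16.0) in NT controls and 0.448 to 52.1 CPM (median 6.57) in knockdowns. It was lower in 8 of 10 libraries, most in the first 42-2 set (73.4 to 0.448 CPM), and higher in both 42-3 sets (11.0 to 20.4 and 11.0 to 52.1 CPM). The estimate was -1.45 (SE 0.73, adjusted p = 0.333). Ggt6, of the gamma-glutamyltransferase family, was at 0 to 5.79 CPM (median 0.967) and 0 to 3.18 CPM (median 0.0822), with an estimate of -0.82 (SE 0.38, adjusted p = 0.296). It was lower in all 3 lung sets, for example from 5.79 to 0 CPM in the second 42-3 set, while most liver libraries were near the 3-read level throughout. Chac1, a cytosolic glutathione-degrading enzyme induced by the integrated stress response, was even in NT controls (19.0 to 32.2 CPM) and ranged from 2.07 to 103 CPM in knockdowns. It was lower in 6 of 10 libraries and its estimate was -0.37 (SE 0.49, adjusted p = 0.743).

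Control pairs of a line gave a yardstick for these differences. Between the second and first NT control of 42-3, 7 of 38 members differed at least 2-fold on the log2(CPM + 1) scale (18.4%, against 14.6% of all genes), and between those of 42-2, 18 of 38 did (47.4%, against 26.3%). Between a knockdown library and its own control the number was 9 to 26, with a median of 15, or 23.7% to 68.4% of members (median 39.5%) against 8.55% to 47.0% of all genes (median 25.6%). In 42-2, Mgst1 was at 455 and 82.6 CPM in the 2 controls, Oplah at 73.4 and 4.77 CPM and Gstm4 at 35.8 and 3.85 CPM. On the log2(CPM + 1) scale the second control minus the first was -2.45 for Mgst1, -3.69 for Oplah and -2.92 for Gstm4. Between control and knockdown some sets differed less than this and others more. Mgst1 was at 0.05 in the second 42-3 set and -5.25 in 13-2, and Gstm4 at -0.47 in the first 42-3 set and -3.40 in 6-2. The 2 controls of each line carry different library codes, and those of 42-2 also differed in Xist.

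Lung and liver lines were compared in NT controls on cell line means, 2 lung against 4 liver lines. Again 0 of 38 members passed in limma (background 0.0309%), with 10 at an unadjusted p under 0.05, 6 higher in lung and 4 lower (26.3% of members against 13.1% of all genes). By edgeR 0 members were called and 9 of 38 had an unadjusted p under 0.05, against 2140 of all 12931 genes. The member median was 0.06 against -0.05 for all genes. Lung and liver CPM did not overlap for 6 of 38 members (15.8%, near the background of 12.2% of genes): Glrx, Glrx2, Ggt6, Ggct, Hagh and Mgst1.

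Mgst1 was at 35.0 to 67.7 CPM in the 3 lung controls and 82.6 to 501 CPM in the 5 liver controls, a difference of -2.02 (SE 0.50, adjusted p = 0.220). Gstk1, the mitochondrial and peroxisomal kappa transferase, was at 0 to 0.402 CPM in lung controls and at 5.13 to 18.1 CPM in 4 of the 5 liver controls, but had no read in the second 42-2 control, against 17.2 CPM in the first. Its difference was -2.76 (SE 0.63, adjusted p = 0.200). Glrx was lower in lung lines, 14.4 to 22.8 CPM against 26.2 to 98.5 CPM, with a difference of -1.56 (SE 0.53, adjusted p = 0.305). Hagh was higher in lung lines, 51.5 to 69.8 CPM against 30.6 to 41.9 CPM, with a difference of 0.68 (SE 0.25, adjusted p = 0.325). Ggt6 was at 2.58 to 5.79 against 0 to 1.70 CPM, a difference of 1.68 (SE 0.48, adjusted p = 0.253). Ggt1, the main cell-surface gamma-glutamyltransferase, had the smallest p (2.52 (SE 0.50, adjusted p = 0.148) in limma). Its lung values disagreed within a line, at 14.4 CPM in the first 42-3 control, 0 in the second and 11.3 CPM in 6-2, with liver controls at 0.0576 to 0.616 CPM. Site also moved with other lists, though 0 of their genes passed. Of the 7 epithelial markers 6 had a positive lung estimate (median 1.26), as had all 6 identity transcripts tested (median 2.81). Of 6 fibroblast markers, 5 had a negative lung estimate (median -1.86). The part of these lists in the differences between sites was not tested.

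**Figure D4:**
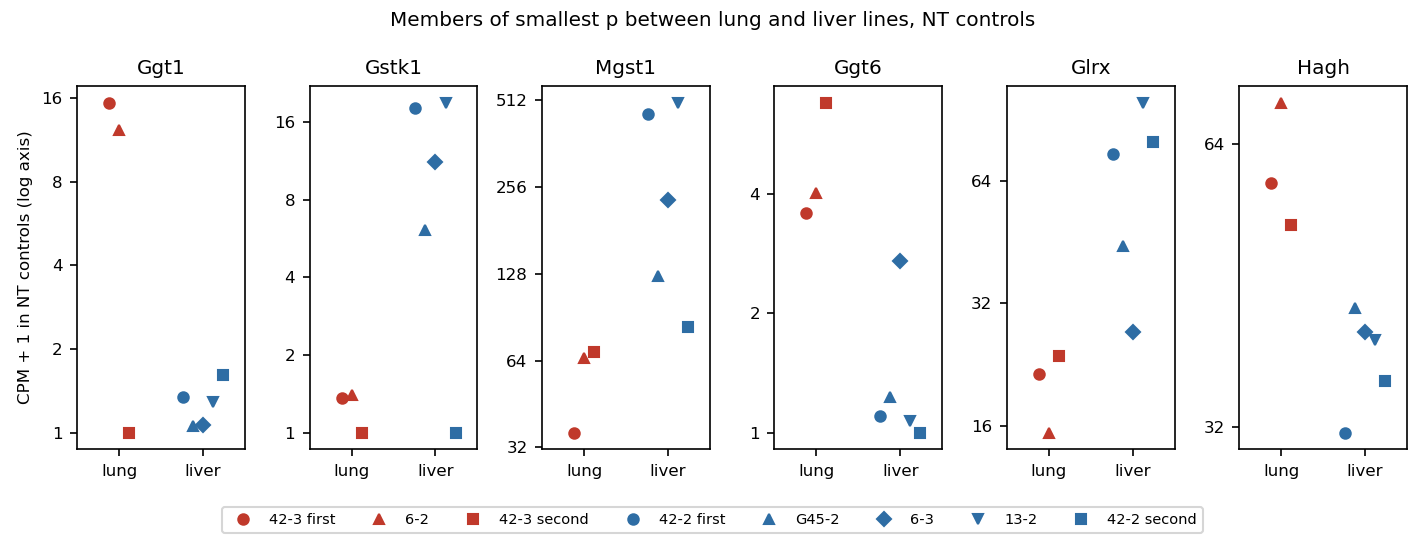
CPM + 1 on a log axis in the 3 lung (red) and 5 liver (blue) NT controls for the 6 members of smallest p in the site comparison, with a symbol for each culture set. Mgst1, Ggt6, Glrx and Hagh separate the sites, while the second 42-3 control falls among the liver values for Ggt1 and the second 42-2 control among the lung values for Gstk1.

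Whether the knockdown difference itself varied with site was tested by interaction. No member passed in limma (0 of 38, background 0.186%), and 7 had an unadjusted p under 0.05 (18.4%, against 17.7% of all genes). The edgeR test called 0, with 4 of 38 at an unadjusted p under 0.05, against 2016 of all 12931 genes. Ggt6 came closest, at -2.24 (SE 0.43, adjusted p = 0.0736), and passed at an adjusted p of 0.0248 when no filter on low values was used. From the values above, its lung knockdowns held 0 to 0.102 CPM against 2.58 to 5.79 CPM in lung controls. Its liver sets moved by at most 0.32 on the log2 scale, with hairpins averaged within a set. Liver controls held only 0 to 1.70 CPM, so a fall in them could hardly be measured. Single liver libraries moved more: in 6-3 Ggt6 went from 1.70 CPM up to 3.18 with shRNA 1 and down to 0.416 with shRNA 2. Glrx followed at 1.92 (SE 0.64, adjusted p = 0.175), with lung sets at -0.29, 0.10 and 1.40 and liver sets from -2.39 to -0.56. Gstk1 came after these at 2.29 (SE 0.82, adjusted p = 0.202). Its lung controls held 0 to 0.402 CPM, so a fall in them could hardly be measured either. Between lung and liver controls, each of these members differed the other way (Ggt6 1.68, Glrx -1.56, Gstk1 -2.76). The same NT controls enter both comparisons, so the interaction is not separate from the site comparison. Since all 3 lung sets have libraries of differing identity transcripts, site and that difference cannot be told apart here.

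In the direct test between hairpins limma called 0 of 38 members (background 0%), with 0 at an unadjusted p under 0.05 (0.495% of all genes), and edgeR called 0. The 3 members of smallest p were Gsta1 at -1.002 (SE 0.49), Ggt7 at -1.18 (SE 0.74) and Chac1 at 0.96 (SE 0.78), each with an adjusted p of 0.9999, as shRNA 2 minus shRNA 1. Without the 5 sets that differed in identity transcripts the values were -0.40 for Gsta1 and 1.74 for Chac1.

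Within lines that had both hairpins, the libraries could be set side by side without their control. In 6-3, Gstt1 was at 19.2 CPM with shRNA 1 and 0.250 CPM with shRNA 2, and 32 of 38 members were lower in the shRNA 2 library (84.2%, against 58.9% of all genes), with a median of -0.80 against -0.13. Gstm1 was at 146 and 8.41 CPM, Oplah at 20.4 and 1.17 CPM and Gpx3 at 37.2 and 0.583 CPM. Chac1 was the other way, at 9.06 and 51.1 CPM. In G45-2, with Gstt1 at 23.9 and 5.15 CPM, 18 of 38 members were lower with shRNA 2 and the median was 0.05 against 0.03 for all genes. Each line gives 1 library per hairpin, so these differences have no replicate check. In 6-3, Gstm4, Gstm5 and Gstm7 were already low with shRNA 1, at 1.59, 13.3 and 0.715 CPM, where Gstt1 remained at 75.4%. Their shared control held 50.1, 223 and 11.5 CPM and carries another library code than both hairpin libraries. The shRNA 2 library of 6-3 had reads for 13535 genes, the fewest of the 18 libraries, against 14515 with shRNA 1. Its fibroblast marker sum was 4.16 CPM, against 118 CPM with shRNA 1. The part of these in the differences between the hairpins was not tested.

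**Figure D5:**
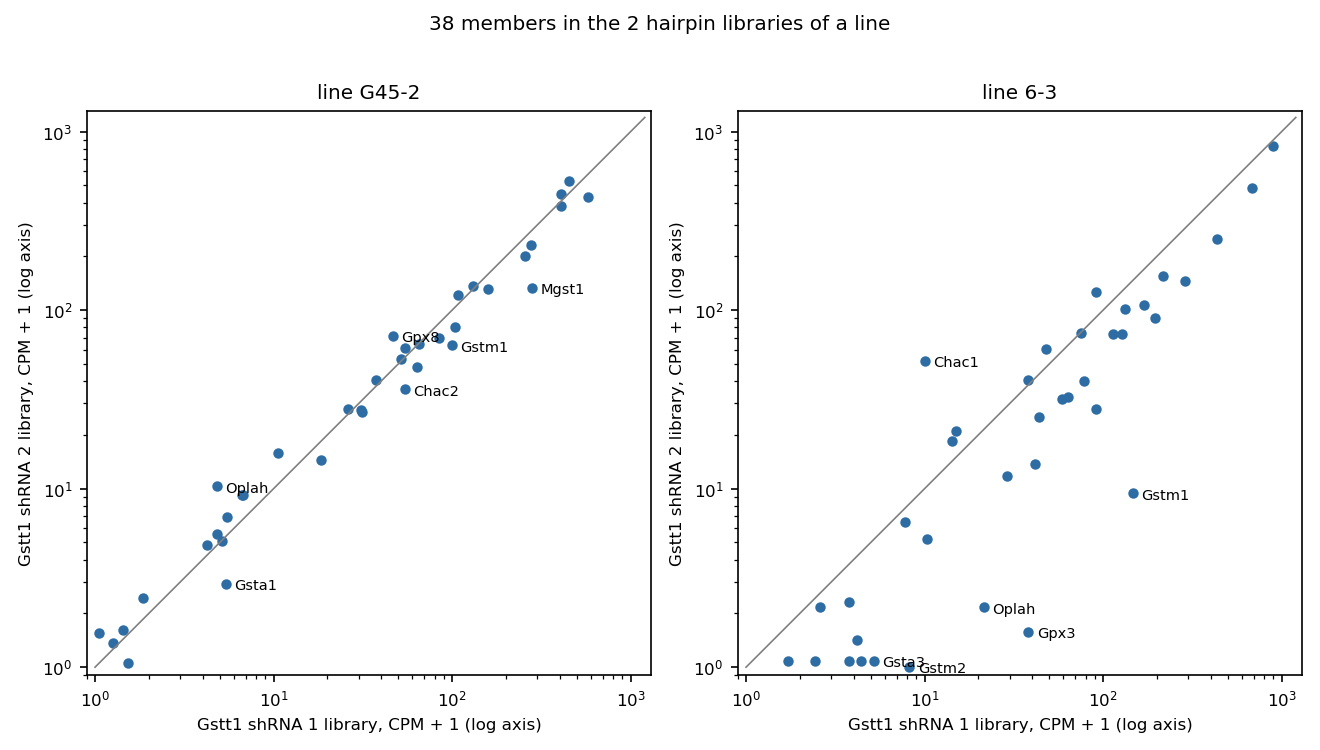
CPM + 1 of the 38 members tested in the shRNA 1 library (horizontal, log axis) and the shRNA 2 library (vertical, log axis) of lines G45-2 and 6-3, with the line of equality in grey and the 6 members farthest from it named. In 6-3, 32 points lie below the line, Gstm1, Oplah and Gpx3 far below, while in G45-2 the points scatter around it.

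Other genes of the pathway, from lists outside the members, gave 0 called in each list under knockdown. In the theta class 3 of 3 tested had negative estimates, Gstt1 at -3.27 (SE 0.67, adjusted p = 0.0820) and its relative Gstt3 at -2.38 (SE 0.57, adjusted p = 0.109). Of 13 thioredoxin and peroxiredoxin genes, 8 were below 0 and 5 above, with Prdx5 at -0.80 (SE 0.25, adjusted p = 0.159) and sulfiredoxin Srxn1 at 0.65 (SE 0.21, adjusted p = 0.169). Of 10 cysteine supply genes, 5 were below 0, with Cbs of the transsulfuration pathway at -1.99 (SE 0.80, adjusted p = 0.231), while the cystine importer subunit Slc7a11 was at 16.0 to 88.4 CPM (median 33.3) in NT controls and 9.28 to 129 CPM (median 74.0) in knockdowns. Of 6 exporters of glutathione conjugates, 3 were below 0, Abcc3 furthest at -2.76 (SE 0.60, adjusted p = 0.0944). Of 18 other NRF2 targets and regulators, 12 were below 0 and 6 above. Osgin1 was at -1.31 (SE 0.20, adjusted p = 0.0512) and Me1 at -0.86 (SE 0.28, adjusted p = 0.169), whereas NRF2 itself (Nfe2l2) was at 0.54 (SE 0.22, adjusted p = 0.232) and Nqo1 at 1.37 (SE 0.79, adjusted p = 0.393). Of 4 superoxide and peroxide removal genes 2 were below 0, with Sod2 at -0.67 (SE 0.28, adjusted p = 0.244).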

How the data were processed

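The authors deposited 1 table of CPM (read counts of a gene scaled to a library of 1000000 reads) for 16383 genes in 18 libraries from total RNA prepared with a TruSeq kit, 1.3 µg per library, per the labels' protocols. Per the submitters' processing notes the build was mm9. No source used here gives the aligner, counter, annotation or use of strand. No gene coordinates are printed, since the reference at hand is GRCm38, except those of RefSeq promoters in their own build. In each library all CPM values (100%) were whole multiples of the value of 1 read within 0.01 reads, which gave the depths.

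The 12931 genes that reached 1 CPM in 4 or more libraries entered a limma 3.58.1 fit (R 4.3.3, trend, pseudocount of 1, two-sided) of log2(CPM + 1), with p adjusted by Benjamini and Hochberg over all of them and a threshold of 0.05. The culture set was a block, which pairs libraries by the cell line in the labels. Across genes, a knockdown library's deviation from its group mean correlated at -0.36 to 0.70 with that of its own control, above 0.1 for 4 of 10. The knockdown contrast was the mean of both hairpin effects. Sites were compared in limma on the line means of NT controls, and in edgeR on the separate NT libraries. Single members were also tested by exact sign-flip permutation over 8 sets. Alternatives were other pseudocounts, filters, scalings and blocks, leaving out sets or lines, and edgeR 4.0.16 (quasi-likelihood test) on the recovered reads. The limma and edgeR fits were tested on simulated data with known changes. Apart from those changes, the simulated libraries had no differences between lines or sets. The simulation therefore cannot show how the fits perform on the real libraries. Transcript lengths, shared windows and coding identity came from GENCODE M21. Tables and plots used Python 3.11.15, pandas 2.3.3, scipy 1.17.1 and matplotlib 3.10.9.

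Members, pathway lists, marker lists, identity transcripts and tests were chosen with earlier results of these data known. Members named with full values were the 12 of smallest p for knockdown, 6 for site, 3 for the interaction and 3 for the hairpins, and the highest of each role, and the others are given as ranges. Of each pathway list up to 3 of smallest p are named, and Slc7a11, Nfe2l2 and Nqo1 were added after their values were seen. The genotype labels hold a further item that is not reported here.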

Additional observations from a re-analysis of the deposited data

How the results depend on the processing

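For the 38 members, the count called under knockdown was 0 in every alternative run, and so it was between sites and between hairpins. The member median under knockdown stayed between -0.41 and -0.21. For the interaction the count called was 0 in each alternative but that with no filter on low values, which called 1 (Ggt6). The sign of Gsr under knockdown turned to 0.0723 without the 5 sets whose identity transcripts differ and to 0.118 without 6, and none of the other 9 members followed under knockdown and fitted there reversed. Gsta3 and Ggt6 could not be fitted there. Over all members, signs turned for 10 of 34 and 11 of 33. Counts over all genes were less stable. For knockdown 5 genes were called, 0 with no filter, 0 by edgeR, 0 with 5 and 0 with 6 sets left out, 84 without the culture set as a block, 51 with the cell line as the block, and 0 to 8 when leaving out each set. For sites 4 were called, 2 with a pseudocount of 0.5, 18 with no filter and 14 at a CPM of at least 5. With NT libraries taken separately, limma called 8 and edgeR 1. Leaving out each line gave 0 to 159 (159 without 6-3). For the interaction 24 were called, 41 with quantile normalization, 9 by edgeR, 2 without the block, and 0 to 48 when leaving out each set. The cause of these changes was not tested. The site median of members was between -0.02 and 0.20, so its sign depended on the setting. With 3 reads at up to 0.357 CPM, differences in Gsta2, Gstm3, Gstm6, Gstp2 and Gpx2 could not be measured at this depth in the libraries where they had so few reads.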

Other observations

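The spread of the members between NT controls was wider than that of genes in general. The median SD across the 8 NT controls was 0.74 on the log2(CPM + 1) scale over the 38 members, against 0.49 over all genes tested. Oplah had the widest range in CPM among breakdown genes, from 4.77 CPM in the second 42-2 control to 139 CPM in 13-2. The named members' levels in 8 NT controls, their differences in 8 sets and the member median were examined for a value far from the other 7. Of these 37 groups of values 0 had one, where chance gives about 1 in 20.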
